A study of Macaca mulatta with 25 samples.

Results

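MOSPD2, ZNF300, TCEANC and PLPP6 are 4 genes that had no read in either blastocyst library from macaques given testosterone and a Western-style diet together (TWSD 2 and TWSD 3), although nearly all other libraries held reads of them. They were picked for this absence from 35395 genes in the count table, each matched to its macaque identifier by symbol. The 0 counts in TWSD 2 and TWSD 3 are therefore the rule itself and carry no test here. What the rule did not use is their level in the other 23 libraries, their neighbouring and related genes, and how many further genes were also without reads.

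The libraries came from blastocysts, embryos just before implantation, that were grown for up to 8 days after fertilisation in the laboratory. Their mothers were rhesus macaques treated from about 2.5 years of age, before puberty, for 5 to 6 years. Control females (C, 5 libraries) had cholesterol implants and standard chow with 15% fat. Testosterone females (T, 10 libraries) had testosterone implants and the same chow, which also held 59% carbohydrate and 26% protein. Diet females (WSD, 8 libraries) ate a Western-style diet with 36% fat, 46% carbohydrate and 18% protein, and TWSD females (2 libraries) had the implant and that diet. All mothers also received gonadotropins to stimulate the ovary, and semen of proven males served all groups. Of 10 females enrolled per group, 10 C, 7 T, 6 WSD and 3 TWSD could be stimulated. The labels do not say which female each library came from or how many embryos it holds, so p-values measure the spread between libraries, and embryos may share a parent.

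The proteins of these genes do unrelated work. MOSPD2 is anchored in the endoplasmic reticulum, where its major sperm protein domain binds short FFAT motifs of proteins on other organelles and so holds membranes close together. TCEANC carries domains like those of TFIIS, the factor that helps stalled RNA polymerase II to resume. ZNF300 is a zinc finger protein with a KRAB domain, the part through which this large family recruits the corepressor TRIM28 to silence chromatin. PLPP6 removes phosphate from isoprenoid diphosphates such as presqualene diphosphate, an intermediate on the way to cholesterol. MOSPD2 and TCEANC are X-linked genes.

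Depth and composition differed between libraries. Totals ran from 14219054 to 35544542 counts, with 20381869 in TWSD 2 and 26710010 in TWSD 3, and genes detected from 14247 to 21793, with 15543 and 15419 in the TWSD libraries. Markers of trophectoderm (9 matched genes, summed CPM, which are counts scaled to a common library size, of 3083 to 20214 over all libraries), of epiblast (10 genes, 22.6 to 2123) and of primitive endoderm (11 genes, 696.5 to 21085) were present in every library, the last at 855.3 and 1788 CPM in TWSD 2 and TWSD 3. Controls were the least alike: C 12 had the lowest epiblast sum of all libraries (22.6 CPM), C 11 the highest endoderm sum (21085) and C 8 the highest sum of cumulus markers (5122). Syncytiotrophoblast markers summed to 59.2 and 95.2 CPM in TWSD and ran from 60.2 (C 1) to 11914 (C 8) elsewhere, with medians of 3996 in C, 158.3 in T and 145.2 in WSD. Of these, ERVV-1, INSL4 and CYP19A1 were at 0 in both TWSD libraries, as was the primitive endoderm marker AFP. ERVV-1 and CYP19A1 had reads in 11 and 18 of the 23 other libraries. Oocyte markers summed to 536.4 and 172.3 CPM in TWSD 2 and TWSD 3 (9.82 to 541.5 elsewhere), with ZP1, BMP15 and FIGLA at 0 in both (FIGLA in all C libraries too). Cumulus and granulosa markers summed to 272.4 and 336.1 CPM (75.8 to 5122 elsewhere), with FSHR, FOXL2 and PTX3 at 0 (FSHR in all C and PTX3 in all WSD libraries too). Blood markers summed to 2.96 and 10.1 CPM, and sperm markers to 0 and 0.252. The part of these differences in the absence of the 4 genes was not tested. In bulk libraries, fewer cells of a type and less RNA per cell cannot be told apart.

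Levels (CPM) carry TMM factors, which correct the library size for composition. They are not divided by transcript length, so they compare libraries for a gene and not genes with each other. With 0 counts in both TWSD libraries, the level compatible with counting error was set at 3 counts over the group, or 0.0692 CPM (3 counts are 0.193 CPM in TWSD 2 and 0.108 in TWSD 3). Folds over this limit follow from the rule that picked the genes, and the limit leaves out the spread between libraries.

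MOSPD2 (ENSMMUG00000017842) had reads in all 23 other libraries, from 62 to 477 counts. In controls, C 8 (20.8 CPM) and C 12 (21.5 CPM) lay above C 1 (8.10), C 2 (9.62) and C 11 (6.45). In T it ran from 5.11 (T 3) over a median of 11.9 to 20.9 CPM (T 9). The groups with reads covered much the same span, since in WSD it ran from 3.24 (WSD 7) over a median of 7.32 to 22.4 CPM (WSD 1). Group means were 13.3 ± 7.28 CPM in C (SD, n = 5), 12.5 ± 5.94 in T (n = 10) and 10.4 ± 6.78 in WSD (n = 8), the first of which is 192-fold above the TWSD limit.

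TCEANC (ENSMMUG00000022616) was the member with the fewest reads, from 5 counts in T 3 to 289 in WSD 10. Among controls it was the most even member, at 6.87 CPM (C 1), 6.89 (C 2), 5.75 (C 8), 3.45 (C 11) and 4.54 (C 12). Its T libraries ran from 0.258 (T 3) over a median of 5.05 to 9.86 CPM (T 7), and its WSD libraries from 1.72 (WSD 7) over 4.03 to 8.36 CPM (WSD 4). T 3 came closest to the TWSD libraries, and T 5 followed at 1.39 CPM and 32 counts. The means of 5.50 ± 1.50 CPM in C (SD, n = 5), 5.04 ± 2.91 in T (n = 10) and 4.55 ± 2.43 in WSD (n = 8) differed by less than the spread within groups. The C mean is 79.5-fold above the TWSD limit.

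ZNF300 (ENSMMUG00000012696) ranged from 22 counts in T 8 to 634 in C 11, with reads in all 23 libraries. C 1 and C 2 were low among controls, at 4.40 and 4.62 CPM, C 12 followed at 7.21, and C 8 and C 11 reached 17.9 and 23.8. Its T libraries ran from 1.31 (T 8) over a median of 9.18 to 20.1 CPM (T 1), and its WSD libraries from 3.01 (WSD 1) over 10.9 to 25 CPM (WSD 7). The groups overlapped through most of their range. Means were 11.6 ± 8.78 CPM in C (SD, n = 5), 8.79 ± 5.55 in T (n = 10) and 11.3 ± 7.26 in WSD (n = 8), and the C mean is 167-fold above the TWSD limit.

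PLPP6 (ENSMMUG00000059411) was the sole member that another library also lacked: T 1 had 0 counts of it among 14219054. Controls ranged widely, from 3.08 CPM (C 12) over 11.9 (C 2), 12.1 (C 8) and 16.0 (C 1) to 35.0 (C 11). In T it ran from 0 (T 1) over a median of 13.4 to 19.1 CPM (T 5), with T 10 next to lowest at 1.69 CPM, and in WSD from 4.33 (WSD 7) over 11.4 to 19.6 CPM (WSD 9). T 1 held 294 counts of ZNF300, 279 of MOSPD2 and 70 of TCEANC, so it shared this absence for PLPP6 alone of the 4 genes. Means were 15.6 ± 11.8 CPM in C (SD, n = 5), 11.1 ± 6.91 in T (n = 10) and 12.3 ± 5.80 in WSD (n = 8). The C mean is 225.5-fold above the TWSD limit. PLPP6 overlaps SPATA6L in the RefSeq annotation of assembly T2T-MMU8v2.0, and the strand setting of the counting is not given in the sources used here, so reads of the overlap may be assigned to either. SPATA6L itself had a median of 0.112 CPM in the 23 libraries, 0 counts in TWSD 2 and 1 in TWSD 3.

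**Figure D1:**
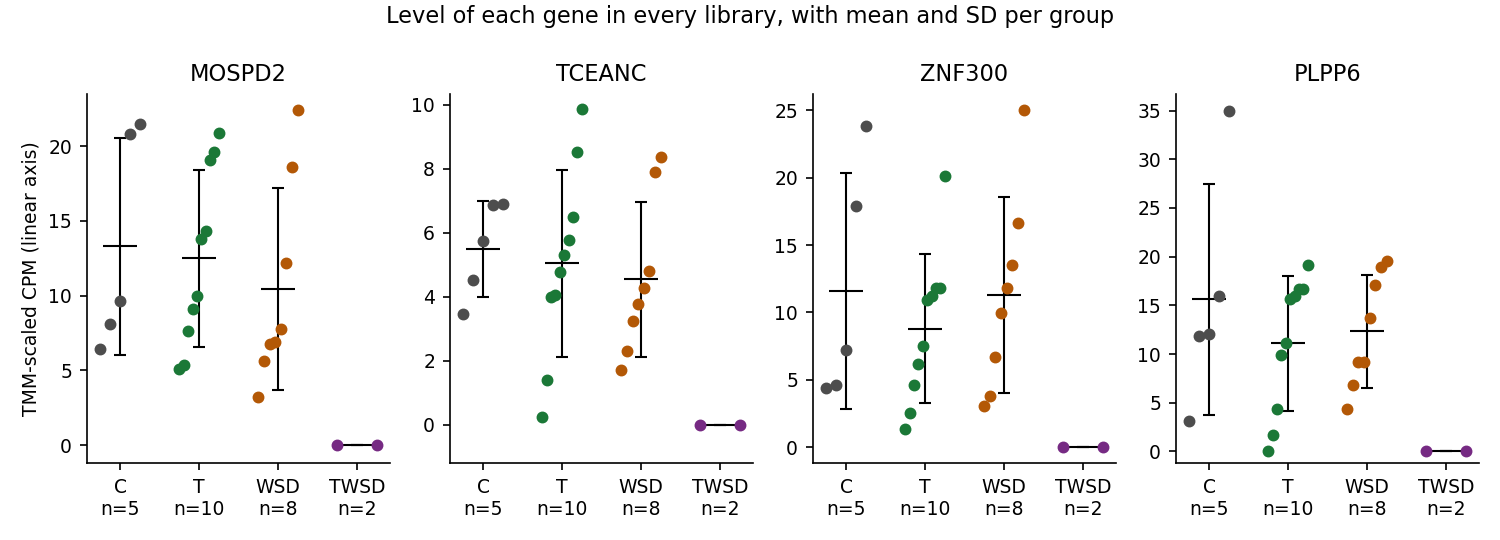
TMM-scaled CPM (linear vertical axis) of each gene in every library, by group on the horizontal axis; points are libraries, ordered by value within a group for display, and the bar and whiskers are the group mean and SD. C, T and WSD libraries overlap for each gene, both TWSD libraries lie at 0, and PLPP6 is at 0 in T 1 too.

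The 4 genes did not go up and down together across the 23 libraries. WSD 7 had the lowest MOSPD2 (3.24 CPM) and the highest ZNF300 (25 CPM), and WSD 1 had the highest MOSPD2 (22.4 CPM) and the lowest ZNF300 of its group (3.01 CPM). C 12 was high for MOSPD2 (21.5 CPM) and low for PLPP6 (3.08 CPM). Spearman's rho between members over these 23 libraries ran from -0.199 (MOSPD2 with PLPP6) to 0.378 (MOSPD2 with TCEANC), given as a description. T 10 was among the 3 lowest libraries for MOSPD2 (5.34 CPM), ZNF300 (2.55 CPM) and PLPP6, but not for TCEANC (5.79 CPM).

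Whether testosterone or the diet alone moved the 4 genes was tested with edgeR's quasi-likelihood test over the 13934 genes that reached 1 CPM in 5 or more libraries, a filter that all 4 passed. None of the 4 passed at an adjusted p of 0.05 (Benjamini-Hochberg) in T against C, where 4.11% of all genes did, in WSD against C, where 4.07% did, or in T against WSD, where 0% did (237 genes at an unadjusted p under 0.05, and 6 genes by DESeq2). In T against C the log2 changes were -0.09 ± 0.48 (SE) for MOSPD2, -0.12 ± 0.60 for TCEANC, -0.40 ± 0.58 for ZNF300 and -0.49 ± 0.71 for PLPP6, with adjusted p from 0.794 to 0.961. In WSD against C they were -0.35 ± 0.50, -0.27 ± 0.62, -0.04 ± 0.61 and -0.34 ± 0.75 in the same order, with adjusted p from 0.793 to 0.987. The median log2 change of all genes was -0.12 in either comparison. Both comparisons share the control libraries, and these 8 negative values are not independent of each other.

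The intervals are wide. For PLPP6 in T against C the approximate 95% interval of the log2 change was -1.88 to 0.90, and for MOSPD2 in T against WSD, the narrowest, -0.57 to 1.09. Changes of the size that these intervals span cannot be told from none with these libraries. T against WSD gave log2 changes of 0.26 ± 0.42 for MOSPD2, 0.15 ± 0.52 for TCEANC, -0.36 ± 0.51 for ZNF300 and -0.15 ± 0.63 for PLPP6 (edgeR adjusted p of 0.9997 for each). Without C 8, C 11 and C 12, ZNF300 turned to 1.00 ± 0.86 in T against C and 1.36 ± 0.89 in WSD against C, and MOSPD2 to 0.53 ± 0.68 and 0.27 ± 0.68, again with no adjusted p under 0.05.

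**Figure D2:**
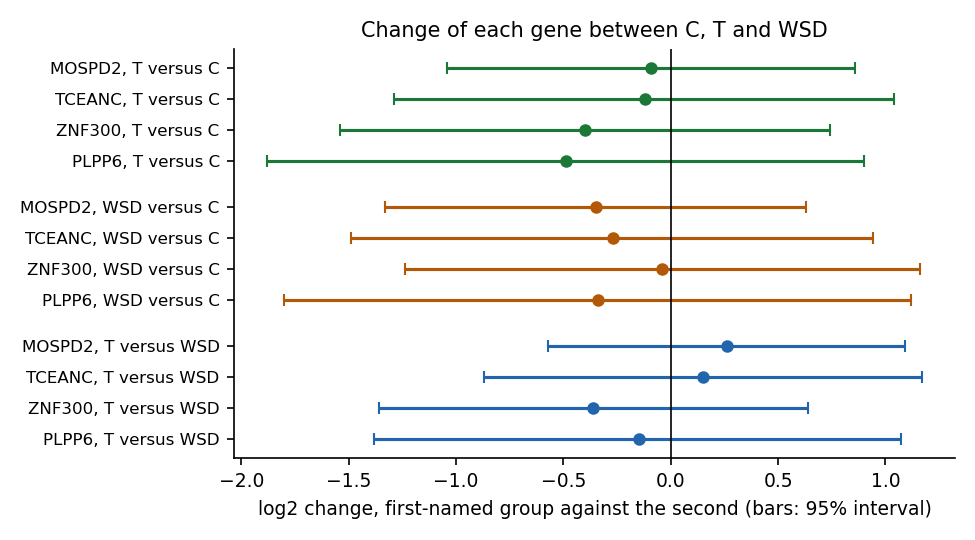
Log2 change of each gene (horizontal axis) in T against C, WSD against C and T against WSD, from the edgeR fit over 25 libraries; points are estimates and bars approximate 95% intervals. All 12 bars cross 0.

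A 0 in both TWSD libraries was more frequent among weakly expressed genes. Of the 13934 genes tested, 584 (4.19%) had 0 counts in both, and 489 of these had a median under 1 CPM over the other 23 libraries, which is 20.2% of the 2418 tested genes at that level. Of the 9268 tested genes with a median of at least 5 CPM in those libraries, 5 (0.0539%) did: PLPP6 (median 12.1 CPM), ZNF300 (9.95), MOSPD2 (9.62), LRRC8E (6.54), a subunit of volume-regulated anion channels, and WDR45B (5.17), which binds phosphoinositides in autophagy. TCEANC came 7th of the 584 with 4.79 CPM. Its place and those of PLPP6, ZNF300 and MOSPD2 at the top of this order reflect how they were chosen.

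LRRC8E had reads in 21 of the 23 other libraries and WDR45B in 18, against 23 for MOSPD2, ZNF300 and TCEANC and 22 for PLPP6. Next by median, among genes with a symbol and with TCEANC aside, were SLAIN1, CDYL2, IL2RG and PON3. SLAIN1 promotes microtubule growth (4.80 CPM, 22 of 23 libraries) and CDYL2 is a chromodomain protein (4.55 CPM, 22 of 23). IL2RG is the common gamma chain of interleukin receptors (4.26 CPM, 20 of 23) and PON3 a paraoxonase (3.83 CPM, 21 of 23). SLAIN1 and CDYL2 lay highest in C, with means of 9.31 ± 14.1 and 13.3 ± 21.4 CPM (SD, n = 5), and varied more there than any of the 4 members did. Only 16 of the 584 had reads in all 23, or 0.165% of the 9723 tested genes that did.

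Just outside the rule stood 201 tested genes with a single count in the TWSD libraries together. ZNF180, another KRAB zinc finger gene, had 1 count in TWSD 2 and 0 in TWSD 3 at a median of 11.5 CPM elsewhere, a level between those of PLPP6 and ZNF300. ALDH1L1, a folate enzyme (6.24 CPM elsewhere), and BECN2, a relative of the autophagy factor beclin (5.89 CPM), each had 0 counts in TWSD 2 and 1 in TWSD 3.

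**Figure D3:**
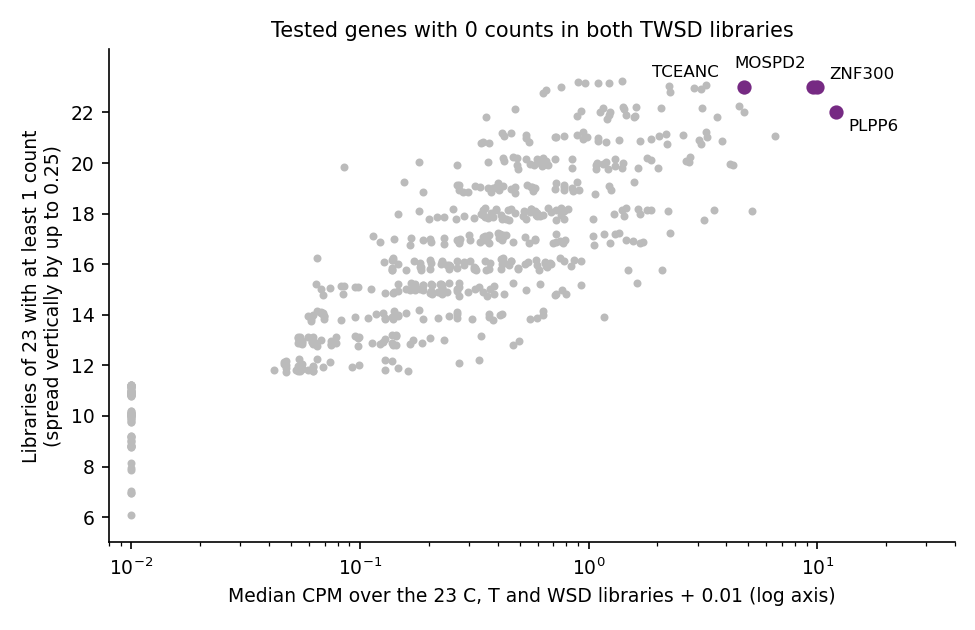
The 584 tested genes with 0 counts in both TWSD libraries, by median CPM over the 23 C, T and WSD libraries plus 0.01 (horizontal log axis) and by how many of these 23 libraries held at least 1 count (vertical axis); purple points are the 4 genes. Most of the other genes lie under 1 CPM, and 3 of the 4 named genes have a higher median than any of the rest.

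Absence of otherwise expressed genes was not equally frequent in the libraries. TWSD 2 lacked reads for 294 genes with a median of at least 5 CPM over the other 24 libraries, the highest number of the 25, and TWSD 3 for 22. C 12 lacked 211, C 11 84, C 1 60, C 8 9 and C 2 5, T libraries 1 to 37 and WSD libraries 1 to 51. T 1, the library without PLPP6, had the 37. By the medians of the 23 libraries outside TWSD, 297 such genes were at 0 in TWSD 2 and 23 in TWSD 3, and the 5 that both lacked are 1.68% of the former and 21.7% of the latter. The 2 TWSD libraries thus rest on unequal evidence: a 0 at this level was 1 of 297 in TWSD 2 and 1 of 23 in TWSD 3. The summed level of 11 Y-linked genes was 2.13 CPM in TWSD 2 and 773.8 CPM in TWSD 3, so X-linked MOSPD2 and TCEANC were without reads both in a library with hardly any Y-linked reads and in one with many.

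**Figure D4:**
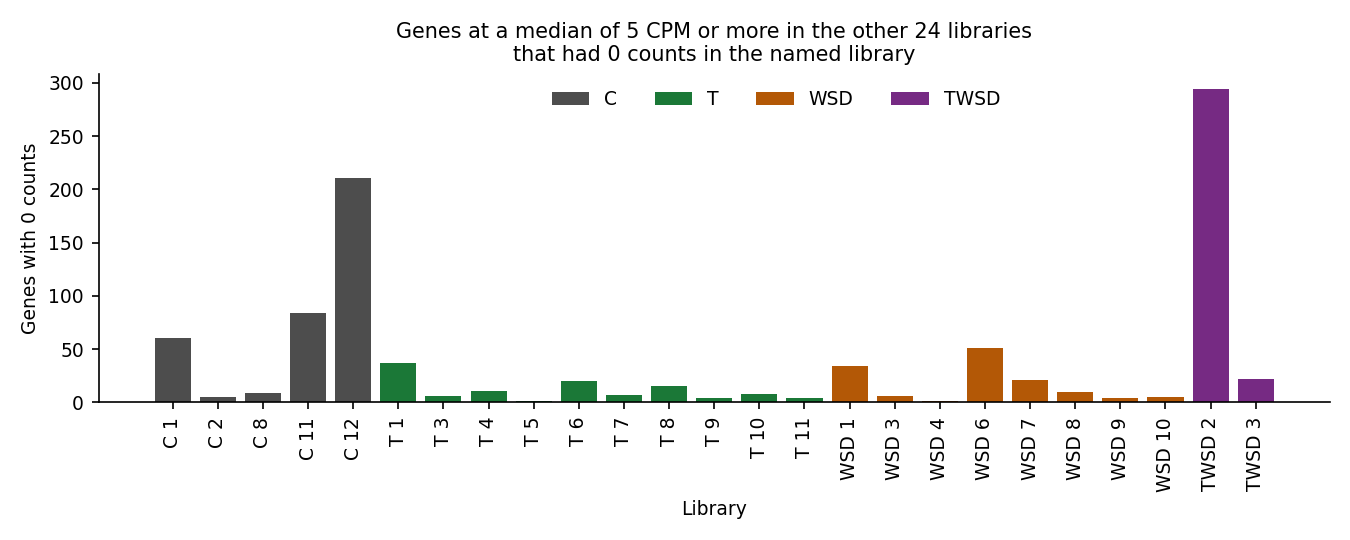
Number of tested genes (vertical axis) that had a median of at least 5 CPM over the other 24 libraries and 0 counts in the named library (horizontal axis), colored by group. TWSD 2 (294) and C 12 (211) stand above the rest, and TWSD 3 (22) lies within the range of T and WSD libraries.

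Most genes near the members had reads in the TWSD libraries. The 5 nearest genes with a row on each side in the RefSeq order were 37 in all, since those of MOSPD2 and TCEANC overlap. Of these 37 neighbours, 8 had 0 counts in both TWSD libraries. Among all 35395 genes counted, 16562 did, which is a larger share. The low-value filter left 28 of the 37 neighbours for the test. None of these 28 passed in TWSD against C by edgeR's quasi-likelihood test (lowest adjusted p 0.12), where 1.20% of all genes did. All 21 tested neighbours with reads in each of the 23 other libraries had reads in both TWSD libraries, as did 95.5% of all tested genes with that property. Of the 8 absent neighbours, 7 did not pass that filter, EGFL6, the nearest before TCEANC, among them. The other was TLR7, a receptor for single-stranded RNA, at a median of 0.173 CPM elsewhere.

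MOSPD2 and TCEANC are close to each other, with 10 RefSeq genes between them. Of these, 6 were tested (RAB9A, TRAPPC2, OFD1, GPM6B, GEMIN8 and FANCB), and all 6 had reads in both TWSD libraries. OFD1, a centriole protein, had 3162 counts in TWSD 2 and 1289 in TWSD 3, and GEMIN8, part of the complex that assembles spliceosomal ribonucleoproteins, 668 and 1068. FANCB, the DNA repair gene next to MOSPD2, had 49 and 59, and RAB9A, the trafficking GTPase next to TCEANC, 27 and 8. TRAPPC2, a subunit of a vesicle tethering complex, was uneven, at 42 counts in TWSD 2, below every other library, and 1173 in TWSD 3, or 42.2 CPM against a median of 35.3.

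Around ZNF300, DCTN4, a subunit of dynactin, had 2294 and 3955 counts in TWSD 2 and TWSD 3, and GPX3, a glutathione peroxidase, 350 and 1036. ANXA6, which binds membranes with calcium, was lower in TWSD 2 (359 counts) than in any of the 23 libraries, and CCDC69 had 0 counts in TWSD 2 and 247 in TWSD 3. Around PLPP6, the mitochondrial kinase AK3 had 3970 and 2564 counts and CDC37L1, a cochaperone relative, 2738 and 1808. SLC1A1, a glutamate transporter, had 9 counts in TWSD 2 and 874 in TWSD 3. Of the 28 tested neighbours, 2 were lower and 5 higher in TWSD 2 than in all 23 other libraries, against 0 and 0 in TWSD 3. The same share over all tested genes is not given here, so these numbers do not set the neighbours apart. TWSD 2 had 0 counts for 14.7% of all tested genes.

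**Figure D5:**
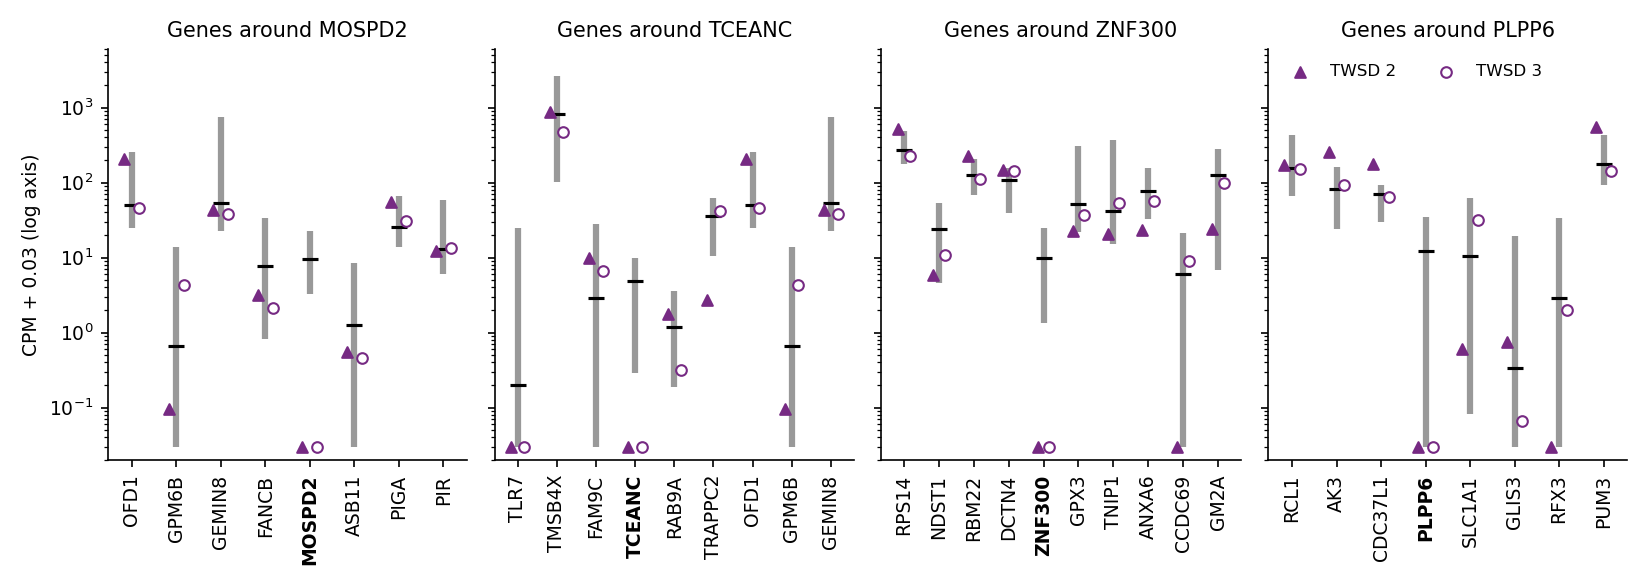
CPM plus 0.03 (log vertical axis) of each gene (bold) and its tested neighbours in RefSeq order (horizontal axis); grey bars span the 23 C, T and WSD libraries, black ticks are their medians, triangles are TWSD 2 and circles TWSD 3. The member sits at the bottom of each panel in both TWSD libraries, while TWSD 3 lies within the grey bar of every neighbour shown.

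The closest relatives of MOSPD2 had reads in both TWSD libraries. VAPA and VAPB, the other main FFAT receptors, had 17173 and 521 counts in TWSD 2 and 9732 and 1655 in TWSD 3, MOSPD1 609 and 485, and MOSPD3 1465 and 710. Of 28 tested genes of this family and its partners at membrane contacts, none had 0 counts in both TWSD libraries, where 4.19% of all tested genes did. Among tested genes with a median of at least 5 CPM elsewhere the share was 0.0539%, so this does not set the family apart. Of the 28, 1 had 0 counts in TWSD 2, where 14.7% of all tested genes did. This was ACBD4, a tether of peroxisomes, which had 39 counts in TWSD 3. Some other partners had few reads in TWSD 2 alone. The lipid transporter VPS13A had 3 counts in TWSD 2 and 951 in TWSD 3. ACBD5, another peroxisomal tether, had 11 and 1474, which is 0.709 CPM in TWSD 2 against a lowest of 9.64 CPM in the 23 other libraries. OSBPL2 (log2 change -0.99), OSBPL3 (-1.77), which are lipid transfer proteins, and RMDN3 (-1.44), a mitochondrial tether, fell in T against C, where 3.77% of all genes fell. The same 3 fell in WSD against C (-1.12, -2.27 and -2.03), where 3.6% of all genes fell, and CERT1, the ceramide carrier, rose (1.03 ± 0.28, edgeR adjusted p = 0.0340), where 0.466% rose. None of the 28 passed in TWSD against C, where 1.20% of all genes did (median log2 change -0.58, against -0.38 for all genes).

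TCEANC2, which shares domains with TCEANC, had 1520 counts in TWSD 2 and 635 in TWSD 3, and TCEA1, the general TFIIS, 1350 and 3914. TCEA2, another TFIIS gene, had 0 and 10 counts, at a median of 1.22 CPM elsewhere. Of 35 tested genes of elongation, 1 had 0 counts in both TWSD libraries (SPOCD1, median 0.305 CPM elsewhere), where 4.19% of all tested genes did. CCNT1, a cyclin of the elongation kinase P-TEFb, had 0 counts in TWSD 2 and 479 in TWSD 3. In TWSD 2, 3 of the 35 had 0 counts, where 14.7% of all tested genes did. SUPT16H, a subunit of the histone chaperone FACT, rose in TWSD against C (1.14 ± 0.25, edgeR adjusted p = 0.0217), where 0.861% of all genes rose. The Mediator subunit MED26 fell in T against C (-2.49 ± 0.56), where 3.77% of all genes fell. In WSD against C, where 3.6% of all genes fell, MED26 was at -2.66 ± 0.61. AFF4 (-1.88) and CCNT2 (-1.74), which also serve P-TEFb, fell in WSD against C. Without C 12, MED26 was at -0.44 in T against C. In WSD against C, MED26, AFF4 and CCNT2 were then at -0.61, -1.09 and -1.44.

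Among 35 listed and tested KRAB zinc finger genes other than ZNF300, none had 0 counts in both TWSD libraries, against 4.19% of all tested genes. That share was 20.2% under a median of 1 CPM elsewhere and 0.0539% from 5 CPM, so it depends on the level of the genes listed. The list does not hold the whole family: ZNF81 (median 1.09 CPM, reads in 23 of 23 other libraries) and ZNF517 (1.45 CPM, 22 of 23), singled out after their values were seen, also had 0 counts in both. Within the list, 2 of the 35 had 0 counts in TWSD 2 and 1 in TWSD 3, where 14.7% and 8.83% of all tested genes did. ZNF667 had 407 counts in TWSD 2 and 0 in TWSD 3, ZNF786 0 and 158, and ZNF707 0 and 112. ZNF263, ZNF274 and ZNF317 fell in T against C (-2.16, -1.40 and -2.72), where 3.77% of all genes fell. ZNF263, ZNF317 and ZNF331 fell in WSD against C (-2.23, -2.68 and -1.30), where 3.6% did. Without C 12 these changes were 0.12, -0.27 and -0.51 in T against C and 0.05, -0.48 and -0.72 in WSD against C. None of the 35 passed in TWSD against C, where 1.20% of all genes did. The corepressor TRIM28 had 4692 and 19754 counts in TWSD 2 and TWSD 3, and the methyltransferase SETDB1, which it recruits, 1681 and 971. Of 14 genes of this corepressor machinery, HDAC1, a histone deacetylase, rose in TWSD against C (1.23 ± 0.30, edgeR adjusted p = 0.0408), where 0.861% of all genes rose. CBX1, a heterochromatin protein, rose in T against C (1.33), where 0.337% of all genes rose. ATF7IP, a partner of SETDB1, fell in T against C (-1.54), where 3.77% of all genes fell.

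Some lipid phosphatases related to PLPP6 were nearly without reads in TWSD 2, where 14.7% of all tested genes had 0 counts. Their levels elsewhere are not reported here, and neither are PLPP2 and PLPP4. PLPP1 had 1 count in TWSD 2 and 824 in TWSD 3, PLPP5 1 and 390, and PLPP7 5 and 70. Others were near even: PLPP3 was at 11.9 and 17.3 CPM, the sphingosine phosphate phosphatase SGPP1 at 27.4 and 29.4, and DOLPP1, which acts on dolichol diphosphate, at 86.6 and 65.8. No gene of 15 tested passed in any comparison. Of all genes, 4.11% passed in T against C, 4.07% in WSD against C, 0% in T against WSD and 1.20% in TWSD against C. The median log2 change of the 15 in TWSD against C was -1.23, against -0.38 for all genes. Of these 15, SGPP2 and SGMS2 had 0 counts in both TWSD libraries, where 4.19% of all tested genes did. Their medians elsewhere were 0.915 and 0.585 CPM, and of tested genes with a median under 1 CPM 20.2% were at 0 in both. Enzymes of isoprenoid synthesis, which make the substrates of PLPP6, had reads in both TWSD libraries: FDPS 3638 and 5219 counts, the squalene synthase FDFT1 12933 and 25614, and GGPS1 690 and 458. None of 21 tested isoprenoid genes passed in any comparison, with a median log2 change of 0.15 in TWSD against C, against -0.38 for all genes. With such shares over all genes, lists of 15 and 21 may hold no call, so this does not set them apart.

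Over the 6 lists of related genes, 9 of 148 passed in T against C (6.08%), 10 in WSD against C (6.76%) and 2 in TWSD against C (1.35%), beside 4.11%, 4.07% and 1.20% of all genes. These calls moved with the libraries and the scaling. With library totals 2, 4 and 0 related genes passed, and by DESeq2 14, 15 and 17. Without C 12, or without C 8, C 11 and C 12 together, 0 related genes passed in T against C or WSD against C, and over all genes 40 and 51 passed without C 12. Without TWSD 2, 0 genes passed in TWSD against C (977 at an unadjusted p under 0.05), SUPT16H and HDAC1 included (0.82 and 0.99, both adjusted p = 0.637), with TWSD 3 then taken to vary like the other groups. Neither gene passed with library totals in place of TMM factors, with no filter, with a replicate block or without C 8, C 11 and C 12 (adjusted p from 0.0614 to 0.298). HDAC1 was lost without C 11 too (adjusted p = 0.0671). Without TWSD 3, 33 related genes passed in TWSD against C, SUPT16H and HDAC1 included.

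The genes named here, whose pattern over the 23 libraries was most like that of a member, had reads in at least 1 TWSD library. They were ranked by Spearman's rho among 12604 tested genes with a symbol, with no p since the highest values were picked. For MOSPD2 they included ZNF596 (rho 0.82) and CCR2 (0.756), with 713 and 2 counts in TWSD 2 and 296 and 353 in TWSD 3. For ZNF300 they were IFI6 (0.81), FXYD5 (0.781) and SELENBP1 (0.771), with 1, 0 and 0 counts in TWSD 2 and 20, 66 and 155 in TWSD 3. Their medians over the 23 libraries were 2.13, 6.78 and 4.6 CPM. TCEANC had the lowest likenesses, to ARHGAP8 (0.609), ASB8 (0.603) and TRAF6 (0.601), with 3209, 10 and 938 counts in TWSD 2 and 3383, 67 and 1370 in TWSD 3. The medians of these 3 genes were 118.7, 1.92 and 22.7 CPM. For PLPP6 they were F2RL2 (0.783), KIF21B (0.753) and PPFIA3 (0.721), with 4, 6 and 10 counts in TWSD 2 and 6, 122 and 156 in TWSD 3. These are 0.258, 0.387 and 0.644 CPM in TWSD 2 and 0.216, 4.39 and 5.61 CPM in TWSD 3. Medians over the 23 libraries were 0.128, 0.508 and 10.1 CPM, so the rho of F2RL2 and KIF21B rests on low counts. These likenesses share the libraries' depth and composition.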

How the data were processed

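The authors deposited unnormalized whole-number read counts for each gene. FastQC 0.11.8, Trimmomatic 0.39, STAR 2.7.0 and build Mmul_10 are named per the submitters' processing notes. What counted the reads, with which annotation and strand setting, is not given in the sources used here. Genes that reached 1 CPM in 5 or more of 25 libraries (13934 of 35395) were fitted with TMM factors and edgeR 4.0.16 in R 4.3.3, with the 4 groups as the only term and the quasi-likelihood F-test (robust; Benjamini-Hochberg, threshold 0.05). DESeq2 1.42.0, other scaling and filters, fits without libraries and a replicate block were alternatives. The code was tested on simulated data. In the shallowest library 1 CPM is 14.2 counts; limits from 3 counts cover counting error alone. Members and lists were chosen with earlier results of these data known. Named genes are the members, the 3 genes most like each (1 is not reported here), the 10 genes with a symbol, the highest median and 0 counts in both TWSD libraries, 3 genes with 1 count there, 5 neighbours a side, and fixed relatives with up to 4 called per list. Symbols came from a table matching 24173 identifiers. Gene order came from RefSeq (T2T-MMU8v2.0), a different build, so no coordinates are given.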

Additional observations from a re-analysis of the deposited data

How the results depend on the processing

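The 12 comparisons of the 4 genes between C, T and WSD were refitted 156 times, and 0 of these fits passed (adjusted p from 0.593 to 1.0), 141 kept the sign and 15 turned. With library totals MOSPD2 turned to 0.12 in T against C and ZNF300 to 0.08 in WSD against C. Without C 8, C 11 and C 12, MOSPD2 was at 0.53 and 0.27 and ZNF300 at 1.0 and 1.36 against C. Leaving out each C and each TWSD library in turn (no T or WSD library was left out), T against C ran from -0.27 to 0.15 for MOSPD2, -0.61 to 0.04 for ZNF300 and -0.75 to 0.04 for PLPP6, and WSD against C from -0.25 to 0.39 for ZNF300 and -0.61 to 0.20 for PLPP6. Title numbers are shared between groups, and the labels do not say whether they pair the libraries. Of 16 same-numbered pairs 3 had correlated deviations over 0.1 (median -0.0131), beside 30 of 200 pairs with other numbers (median -0.0012). With the number as a replicate block, MOSPD2 turned to 0.45 (T) and 0.09 (WSD) against C, PLPP6 moved to -1.69 and -1.07 and ZNF300 to -1.02 and -0.52, and 0 genes passed in T against C, WSD against C or TWSD against C (786, 566 and 1817 unadjusted). Counts of genes called were 573, 567, 0 and 167 in T against C, WSD against C, T against WSD and TWSD against C. DESeq2 gave 1102, 1185, 6 and 1994; library totals gave 240, 321, 0 and 96; without C 8, C 11 and C 12 they were 0, 1, 0 and 20. With no filter TWSD against C gave 92. Leaving out C and TWSD libraries in turn gave 40 to 1287 (T), 51 to 1110 (WSD) and 0 to 2786 (TWSD) against C; C 12 gave the 40 and 51, C 1 the 1287 and 1110, C 2 1050 and 1064, TWSD 2 the 0 and TWSD 3 the 2786, and TWSD against C had 748, 389 and 374 without C 1, C 2 and C 12. The cause was not tested. Genes absent from both TWSD libraries numbered 1101 at up to 3 counts in each and 58 among genes that reached 5 CPM in 5 or more libraries. With no filter they numbered 16562, or 13220 with at least 1 count elsewhere. Chosen after seeing the data, they numbered 1230 to 2055 with either TWSD library alone. At up to 3 counts PLPP6 was still lacking in 1 other library and the other members in 0.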

Other observations

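Of the 584 tested genes with 0 counts in both TWSD libraries, 16 had reads in all 23 other libraries, MOSPD2, ZNF300 and TCEANC among them. The others, singled out after their values were seen, had lower medians. The highest were ANKRD52, a regulatory subunit of protein phosphatase 6 (3.24 CPM, from 0.162 to 11.8), KCP, a secreted BMP modulator (3.10 CPM, 0.064 to 10.5), and AKAP7, a protein kinase A anchor (2.88 CPM, 0.0522 to 9.04). NOXA1, an activator of NADPH oxidase, was at 2.26 CPM (0.0522 to 14.5) and the acetyltransferase relative NAT14 at 2.25 CPM (0.064 to 9.97). Each of these 5 fell under 1 CPM in at least 1 of the 23 libraries, as TCEANC did in T 3 (0.258 CPM), whereas MOSPD2 and ZNF300 never went below 3.24 and 1.31 CPM.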
